A study of Drosophila melanogaster with 18 samples.

Results

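The serpin genes of Drosophila melanogaster were examined across fat body libraries in which 4EHP or NELF-E had been targeted by RNAi. The members are all genes whose symbol starts with Spn followed by a digit, 27 of the 17575 genes listed in each expression table. From background knowledge, 14 of them were grouped as fat body or haemolymph serpins, 8 as male reproductive tract serpins and 5 were left unassigned. This grouping was made with earlier results of these data known. The rule does not reach nec (Spn43Ac), a serpin named for its mutant phenotype, or Acp76A, a male tract serpin with an older symbol. Spn, with no digit, is the gene for Spinophilin, which is not a serpin.

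Serpins are secreted or intracellular proteins that trap serine proteases. The protease cuts an exposed loop of the serpin and remains bound to it, so that each serpin molecule is used once. In insects the fat body releases serpins into the haemolymph, where they restrain the protease cascades that activate the Toll receptor and that turn prophenoloxidase into the enzyme of melanisation. Other serpins are made in the male accessory gland and pass to the female in seminal fluid.

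All libraries came from fat bodies of larvae in the third instar that carried dcg-Gal4, a driver that turns on UAS transgenes in the fat body. For RNA-seq, the genotype dcg-Gal4/uas-4EHP RNAi gave 3 libraries (here 4EHP RNAi) and the driver alone, dcg-Gal4/+ from a cross to the strain w1118, gave 3 controls. A further 3 carried RNAi against NELF-E (dcg-Gal4/uas-NELF-E RNAi) and 3 carried RNAi against lacZ, a bacterial gene that flies lack (dcg-Gal4/uas-lacZ RNAi). In TRIBE, an RNA-binding protein is fused to the editing enzyme ADAR, which leaves A-to-G changes on bound RNA. That experiment compared 3 libraries of 4EHP-ADAR (dcg-Gal4/uas-4EHP-adar) with 3 of a mutant whose pocket for the mRNA cap is impaired (dcg-Gal4/uas-4EHPmutant-adar). 4EHP is a cap-binding protein related to eIF4E, and NELF-E is a subunit of a complex that holds RNA polymerase II near promoters. Each RNA-seq replicate pooled fat bodies of several male larvae. For NELF-E the study obtained larvae at a lower growth temperature, and with a developmental delay, and it describes a slighter delay for 4EHP RNAi. Its methods put every cross other than NELF-E RNAi at the higher temperature, but a development assay kept lacZ RNAi larvae at the lower one, and the temperature of the lacZ RNAi libraries is not stated by name. Knockdown, delay and temperature cannot be told apart in this contrast.

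The 12 RNA-seq libraries held between 59919651 and 173606475 reads on genes. Levels are in CPM (reads per 1e6 reads counted on genes) as deposited unless a scaled value is named. The tests used limma on log2(scaled CPM + 1), the scaled CPM being CPM over a factor for each library from the median of ratios, and took genes that averaged 5 CPM or more. This scale understates the fold changes of low genes. The factors were 0.49 in control replicate 3, 0.50 and 0.73 in lacZ RNAi replicates 2 and 3, and between 1.07 and 1.57 in the other libraries. The 16 testis markers moved with them. Their summed level was 42.4 CPM in control replicate 3, against 2072 and 2594 CPM in the other 2 controls and 2236 to 3389 CPM in the 4EHP RNAi libraries. It was 439 and 1020 CPM in lacZ RNAi replicates 2 and 3, 3176 CPM in lacZ RNAi replicate 1 and 2166.3 to 3292 CPM in the NELF-E RNAi libraries. The 9 fat body markers in the tables were all above 1 CPM in every library, with sums of 146687 to 227551 CPM with 4EHP RNAi and 242159 to 370394 CPM in controls, and of 185198 to 274623 CPM with NELF-E RNAi and 255061 to 362382 CPM with lacZ RNAi. The 6 gut markers, of which at most 1 was at 0 in a library, summed to 52.6 to 687 CPM with 4EHP RNAi and 1.36 to 17.5 CPM in controls, and to 0.396 to 219 CPM with NELF-E RNAi and 0.323 to 87.5 CPM with lacZ RNAi. The 8 haemocyte markers, none at 0, summed to 103 to 128 CPM with 4EHP RNAi and 71.1 to 105 CPM in controls, and to 69.0 to 124 CPM with NELF-E RNAi and 47.1 to 90.5 CPM with lacZ RNAi. The 7 salivary gland markers, none at 0, summed to 120, 557 and 636 CPM with 4EHP RNAi and 43.7, 15.1 and 594 CPM in controls, and to 565, 5.90 and 9.84 CPM with NELF-E RNAi and 392, 19.9 and 18.5 CPM with lacZ RNAi. Control replicate 3 was thus far above the other controls, and replicate 1 far above the others in both groups of the NELF-E table. The part of these cell types in the serpin values below was not tested. The targeted transcripts did not check the labels. eIF4EHP was at 21.4, 14.8 and 18.1 CPM in the 4EHP RNAi libraries and 26.6, 21.3 and 5.55 CPM in controls (log2 fold change −0.28, SE 0.36, adjusted p = 0.725 from limma). Nelf-E was at 33.6, 34.96 and 32.3 CPM in the NELF-E RNAi libraries and 38.6, 12.8 and 20.7 CPM in lacZ RNAi (log2 fold change −0.12, SE 0.25, adjusted p = 0.782). Of 16 alternative settings, 1 called eIF4EHP in the 4EHP table and 0 called Nelf-E in the NELF-E table. The study also blotted NELF-E protein in fat bodies with either RNAi and reports less of it with 4EHP RNAi. These libraries do not measure protein. Each direction below therefore rests on the labels.

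The family was dominated by fat body serpins in every library. The classes were set with earlier results of these data known, so this describes the levels and tests nothing. Their summed level, per kb of coding length, was 755, 1196 and 912 CPM per kb in the 4EHP RNAi libraries and 705, 885 and 1347 CPM per kb in controls. In the other table it was 531, 513 and 635 CPM per kb in the NELF-E RNAi libraries and 608, 862 and 740 CPM per kb in lacZ RNAi. Both pairs of groups overlapped. The male tract serpins together gave only 1.27, 1.40 and 2.24 CPM per kb in the 4EHP RNAi libraries and 2.04, 1.47 and 0.025 CPM per kb in controls. They gave 2.19, 2.32 and 2.83 CPM per kb in the NELF-E RNAi libraries and 3.11, 0.50 and 1.20 CPM per kb in lacZ RNAi. Of the summed level of both classes, the male tract serpins made up between 0.0019% and 0.508%, with a median of 0.206% over the 12 libraries. The unassigned members are not in that sum.

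**Figure D1:**
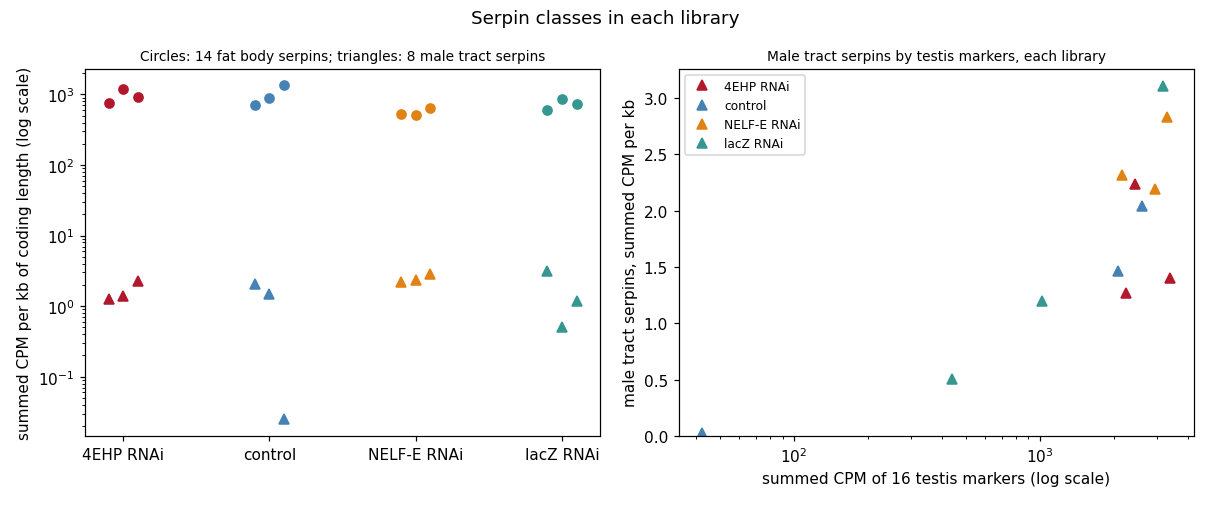
Left, summed CPM per kb of coding length (log axis) of 14 fat body serpins (circles) and 8 male tract serpins (triangles) in each RNA-seq library. Right, the male tract sum against the summed CPM of 16 testis markers (log axis). The lowest triangle, at 0.025 CPM per kb, is control replicate 3, which also had the lowest testis marker sum, 42.4 CPM.

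Within each table, the libraries low in testis markers were also the lowest in male tract serpins. Control replicate 3 held 2 reads over all 8 genes (exact Poisson 95% interval 0.24 to 7.22, which covers counting error only), against 191 and 145 reads in the other controls and 88, 154 and 162 reads in the 4EHP RNAi libraries. In the second table the sums were 304, 393 and 457 reads with NELF-E RNAi and 541, 100 and 223 reads with lacZ RNAi, the low values being replicates 2 and 3. The accessory gland markers were low, with between 5 and 14 of 16 markers at 0 in a library. Their summed levels were 10.1 to 19.6 CPM in the RNAi libraries of both targets. They were 20.7, 14.2 and 0.907 CPM in controls and 18.3, 4.84 and 6.48 CPM in lacZ RNAi. The libraries low in testis markers were thus also the lowest in accessory gland markers within each table. Acp33A and Mst57Da were at 0 in every library, and SP, the sex peptide, in every library of the 4EHP table, whereas no testis or fat body marker was at 0 anywhere. The part of carried testis or accessory gland RNA in the male tract serpin values was not tested. In bulk RNA, fewer cells of a type and less RNA per cell cannot be told apart.

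Single male tract serpins were at the edge of detection. Spn77Bb ranged from 0.014 to 1.32 CPM and Spn77Bc from 0 to 1.13 CPM over the 12 libraries. Spn28F reached 0.895 CPM, Spn28Da 0.198 CPM, Spn38F 0.185 CPM and Spn53F 0.10 CPM. The exons of Spn53F lie wholly within those of an antisense RNA, so its few reads may belong to either. Spn28Db and Spn75F had at most 6 and 4 reads in a library, and a count of 0 allows up to 0.0173 to 0.0501 CPM depending on the library. None of the 8 reached the mean of 5 CPM needed for a test. The unassigned Spn28B, Spn31A and Spn85F were also low, with maxima of 0.140, 0.113 and 0.519 CPM.

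Spn47C is an unassigned serpin. It was at 31.7, 28.0 and 30.3 CPM in the 4EHP RNAi libraries and 31.6, 25.5 and 0.99 CPM in controls. With NELF-E RNAi it was at 40.0, 27.7 and 45.0 CPM, against 42.0, 6.26 and 12.7 CPM with lacZ RNAi. Its low values were in the same 3 libraries that were low in testis markers, which also had the lowest scaling factors. Scaled, it was at 25.2, 20.0 and 22.4 CPM with 4EHP RNAi and 23.6, 23.8 and 2.02 CPM in controls. In the other table the scaled levels were 30.6, 25.3 and 28.7 CPM with NELF-E RNAi and 32.5, 12.5 and 17.4 CPM with lacZ RNAi. The log2 fold change was 0.93 (SE 0.85, adjusted p = 0.695) for 4EHP RNAi and 0.52 (SE 0.34, adjusted p = 0.416) for NELF-E RNAi. This was noticed after the values were seen, and the part of testis RNA in it was not tested.

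**Figure D2:**
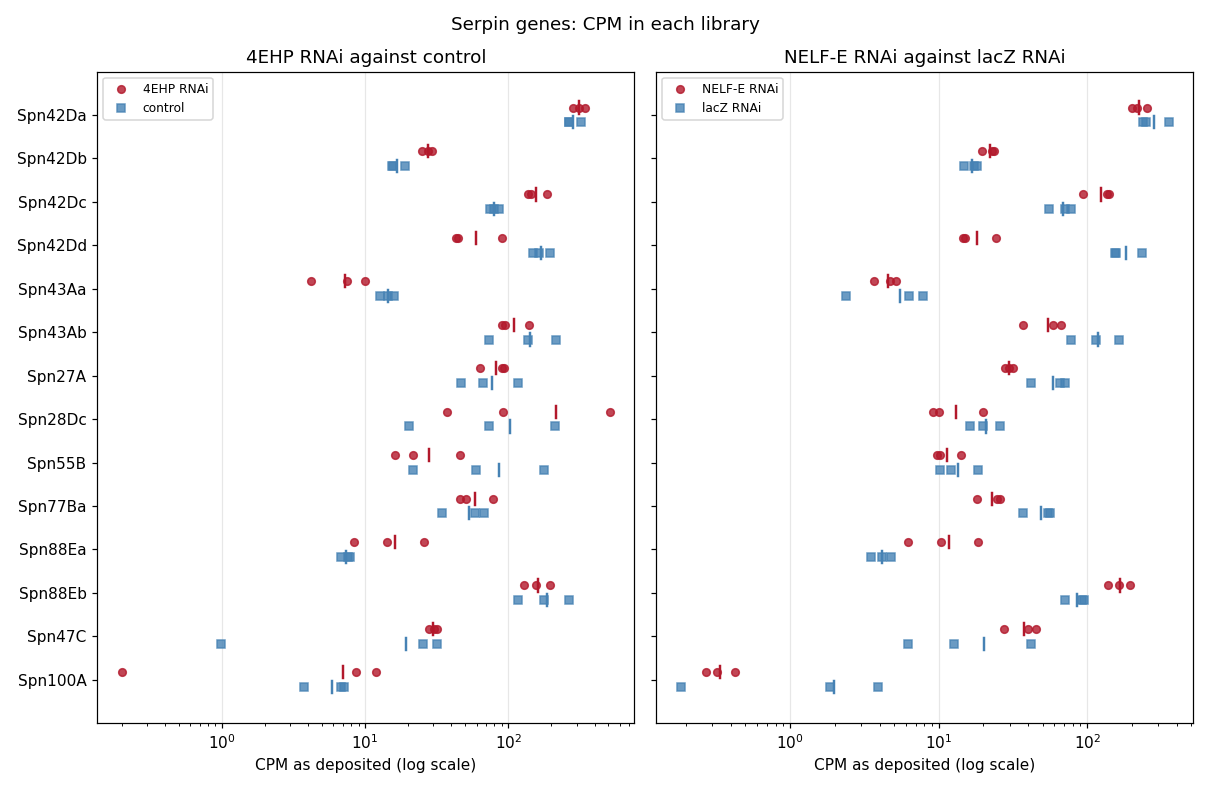
CPM as deposited (log axis) of the 14 serpins with a mean of at least 5 CPM in a table, one row per gene. Circles are RNAi libraries, squares their controls, and vertical ticks the group means. Spn42Dd is the gene whose groups stand farthest apart, at 14.5 to 24.5 CPM with NELF-E RNAi and 154 to 235 CPM with lacZ RNAi.

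Of the 14 fat body serpins, 12 could be tested in each table. Spn42De and Spn43Ad could not, with ranges of 0.505 to 1.47 CPM and 0.695 to 8.07 CPM. Spn47C was tested in both tables and Spn100A in the 4EHP table only, which gives 14 and 13 serpins tested.

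Spn42Dd, also known as Spn1 and reported to restrain Toll activation after fungal infection, was the one serpin that passed the test. It was at 24.5, 15.1 and 14.5 CPM in the NELF-E RNAi libraries and 154, 235 and 156 CPM in lacZ RNAi. Every NELF-E RNAi library lay below every lacZ RNAi library. It fell by 4.00 on the log2 scale (SE 0.50, adjusted p = 0.00534 from limma), with scaled levels of 13.9 ± 4.72 CPM for NELF-E RNAi and 268 ± 182 CPM for lacZ RNAi (SD, n = 3 each). The call was kept in all 16 alternative settings, with adjusted p from 1.5e-15 to 0.0433 and log2 fold changes from −4.47 to −3.27.

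In the 4EHP table Spn42Dd was at 43.4, 44.4 and 90.2 CPM with 4EHP RNAi and 164, 149 and 196 CPM in controls. These groups did not overlap either. The log2 fold change was −2.15 (SE 0.58, adjusted p = 0.278 from limma), which did not pass. It passed in 3 of 16 alternatives: without control replicate 3 (−1.58, adjusted p = 0.0424), in DESeq2 on the recovered reads (−2.32, adjusted p = 0.0171) and with array weights (−1.37, adjusted p = 0.00885). The adjusted p reached 0.892 without 4EHP RNAi replicate 2. The difference between the 2 contrasts was not tested.

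Spn42Dd lies on chromosome arm 2R at 6883280 to 6884873 (dm6), in a row of 5 serpin genes from Spn42Da to Spn42De. Its upstream neighbour on the same strand is Spn42Dc (6880995 to 6883407). The 2 genes overlap by 128 bases and share 63 exon bases, 5.27% of the exons of Spn42Dd, and how shared reads were counted is not given in the sources used here. Spn42Dc was at 140, 92.9 and 137 CPM with NELF-E RNAi and 71.0, 77.8 and 55.5 CPM with lacZ RNAi. With 4EHP RNAi it was at 138, 144 and 185 CPM, against 85.5, 74.5 and 79.3 CPM in controls. As deposited, the groups did not overlap in either table, and the RNAi libraries were the higher ones. After scaling the groups overlapped, with log2 fold changes of 0.09 (SE 0.41, adjusted p = 0.901) for NELF-E RNAi and 0.36 (SE 0.46, adjusted p = 0.724) for 4EHP RNAi, neither past the threshold.

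The reads of Spn42Dc over those of Spn42Dd in the same library need no scaling factor. This ratio was 5.74, 6.16 and 9.43 in the NELF-E RNAi libraries and 0.462, 0.331 and 0.356 in lacZ RNAi. It was 3.18, 3.25 and 2.05 in the 4EHP RNAi libraries and 0.522, 0.50 and 0.405 in controls. Spn42Dd therefore had more reads than Spn42Dc in all 6 control libraries and fewer in all 6 RNAi libraries. The pair was chosen with its values known, so the ratios are given without a test.

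**Figure D3:**
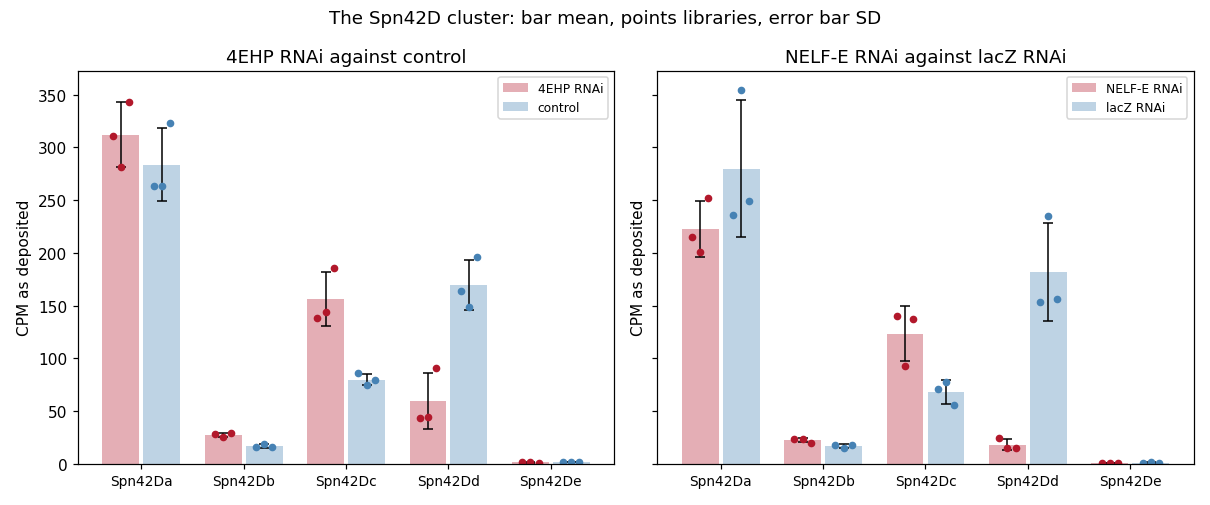
CPM as deposited of the 5 Spn42D genes. Bars are means, points single libraries and error bars SD (n = 3 per group). Spn42Dd is lower in all 3 RNAi libraries of each table, at 14.5 to 90.2 CPM with RNAi and 149 to 235 CPM in the controls, whereas Spn42Dc is at 92.9 to 185 CPM with RNAi and 55.5 to 85.5 CPM in the controls.

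The order of levels depended on the length used, since Spn42Da has long untranslated exons. Per kb of coding length, Spn42Dd ranked second of the 27 serpins in both control groups, at 162.7 ± 41.5 CPM per kb in lacZ RNAi and 151.9 ± 21.6 CPM per kb in the driver-only controls, behind Spn42Da at 220.1 ± 51.3 and 222.8 ± 27.2 CPM per kb (SD, n = 3 each). Its rank was 9 with NELF-E RNAi (16.1 ± 5.00 CPM per kb) and 7 with 4EHP RNAi (53.2 ± 24.0 CPM per kb). Per kb of exon length it ranked first in both control groups. There it averaged 151.9 ± 38.8 CPM per kb in lacZ RNAi, where it ranked above Spn42Da at 105.1 ± 24.5 CPM per kb, and 141.8 ± 20.1 CPM per kb in the driver-only controls, above Spn88Eb at 130.2 ± 51.6 CPM per kb (SD, n = 3 each). In lacZ RNAi the order held in all 3 libraries, whereas in control replicate 3 Spn88Eb was above Spn42Dd (184 and 164 CPM per kb). With NELF-E RNAi its rank by exon length was 5 at 15.1 ± 4.67 CPM per kb, and with 4EHP RNAi 6 at 49.7 ± 22.4 CPM per kb. Spn42Dd made up 5.32%, 3.37% and 2.59% of the summed level of the family per kb of exon in the NELF-E RNAi libraries, against 28.1%, 31.5% and 23.5% in lacZ RNAi. It made up 6.77%, 3.99% and 11.4% in the 4EHP RNAi libraries, against 25.7%, 18.3% and 15.6% in controls. Per kb of coding length the shares were 3.86%, 2.51% and 1.92% with NELF-E RNAi, against 21.2%, 24.2% and 18.5% with lacZ RNAi, and 4.96%, 3.24% and 8.55% with 4EHP RNAi, against 19.9%, 14.6% and 13.0% in controls. With either length, every RNAi library was below every control library of its table.

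The other Spn42D genes did not pass in either contrast. Spn42Da, an inhibitor of the proprotein convertase furin, was at 215, 201 and 252 CPM with NELF-E RNAi and 235, 355 and 250 CPM with lacZ RNAi (log2 fold change −1.06, SE 0.51, adjusted p = 0.30). In the 4EHP table it was at 311, 282 and 344 CPM with 4EHP RNAi and 264, 263 and 323 CPM in controls (log2 fold change −0.45, SE 0.54, adjusted p = 0.713, and 0.14 in CPM as deposited). Groups overlapped in both tables. Spn42Db was at 23.6, 23.0 and 19.7 CPM with NELF-E RNAi and 18.0, 14.8 and 17.2 CPM with lacZ RNAi, and at 27.7, 25.1 and 29.2 CPM with 4EHP RNAi and 15.6, 18.9 and 15.5 CPM in controls. It stood higher in all RNAi libraries as deposited, but its scaled log2 fold changes were −0.33 (SE 0.33) and 0.12 (SE 0.42). An antisense RNA covers 25.6% of the exons of Spn42Db and 10.5% of those of Spn42Da, so their reads are uncertain where strand was not used.

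Among regulators of melanisation, Spn27A, Spn28Dc and Spn77Ba are the best known. Spn27A, which holds back prophenoloxidase activation and also acts on the Toll cascade of the embryo, was at 29.9, 31.6 and 27.8 CPM with NELF-E RNAi and 41.6, 65.5 and 70.4 CPM with lacZ RNAi. Its log2 fold change was −1.67 (SE 0.50, adjusted p = 0.117). Spn77Ba, which limits melanisation in the trachea, was at 18.2, 25.9 and 24.6 CPM with NELF-E RNAi and 36.9, 56.2 and 54.2 CPM with lacZ RNAi (log2 fold change −1.79, SE 0.48, adjusted p = 0.0864). For both genes all 3 NELF-E RNAi libraries lay below all 3 lacZ RNAi libraries, yet limma did not call either.

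Spn28Dc, which limits phenoloxidase activity after wounding, was at 10.0, 9.13 and 19.9 CPM with NELF-E RNAi and 16.3, 25.9 and 19.8 CPM with lacZ RNAi (log2 fold change −1.40, SE 0.47, adjusted p = 0.153). In the 4EHP table its replicates spread widely in both groups. It was at 37.5, 513 and 92.3 CPM with 4EHP RNAi and 20.2, 73.6 and 213 CPM in controls (log2 fold change 0.23, SE 1.42, adjusted p = 0.943). In 4EHP RNAi replicate 2 it alone made up 30.8% of the summed level of the family per kb of exon and 26.0% per kb of coding length. Spn27A was at 63.1, 93.7 and 90.8 CPM with 4EHP RNAi and 46.4, 66.3 and 117 CPM in controls. Spn77Ba was at 50.4, 78.4 and 46.2 CPM with 4EHP RNAi and 34.6, 58.0 and 67.4 CPM in controls. Their log2 fold changes of −0.40 (SE 0.72) and −0.44 (SE 0.64) turned to 0.19 and 0.14 in CPM as deposited.

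The 43A serpins lie next to nec on 2R. Spn43Ab was at 36.8, 58.9 and 67.0 CPM with NELF-E RNAi and 77.6, 114.9 and 163 CPM with lacZ RNAi, with no overlap (log2 fold change −1.84, SE 0.54, adjusted p = 0.114). With 4EHP RNAi it was at 90.7, 140 and 95.2 CPM, against 72.8, 137 and 214 CPM in controls (log2 fold change −0.86, SE 0.76, adjusted p = 0.695). Spn43Aa was at 4.21, 7.46 and 9.96 CPM with 4EHP RNAi and 15.9, 12.8 and 14.4 CPM in controls, again with no overlap (log2 fold change −1.49, SE 0.48, adjusted p = 0.363). In the other table it was at 4.73, 3.68 and 5.17 CPM with NELF-E RNAi and 7.90, 2.38 and 6.30 CPM with lacZ RNAi (log2 fold change −0.73, SE 0.27, adjusted p = 0.188). Opposite-strand exons of CG12828 cover 8.96% of its exons. The serpin nec itself, which keeps the Toll-activating protease persephone in check, was at 55.4, 79.2 and 74.5 CPM with NELF-E RNAi and 85.1, 122 and 114.8 CPM with lacZ RNAi (log2 fold change −1.36, SE 0.49, adjusted p = 0.185). With 4EHP RNAi it was at 95.1, 164 and 82.0 CPM, against 78.4, 126 and 177 CPM in controls (log2 fold change −0.74, SE 0.71, adjusted p = 0.696).

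The 88E pair sits on 3R, 255 bases apart and on one strand. Spn88Ea, an inhibitor of Toll signalling, was at 10.3, 6.21 and 18.5 CPM with NELF-E RNAi and 3.49, 4.13 and 4.77 CPM with lacZ RNAi. It was at 8.40, 25.7 and 14.1 CPM with 4EHP RNAi and 7.55, 6.75 and 7.89 CPM in controls. Spn88Eb was at 138, 162 and 195 CPM with NELF-E RNAi and 70.3, 94.9 and 92.3 CPM with lacZ RNAi, and at 156, 195 and 129 CPM with 4EHP RNAi and 117, 178 and 264 CPM in controls. As deposited, Spn88Ea was higher in every RNAi library of both tables and Spn88Eb in every NELF-E RNAi library. After scaling all these groups overlapped, and the log2 fold changes of Spn88Ea (0.52, SE 0.40 for NELF-E RNAi and 0.34, SE 0.54 for 4EHP RNAi) and of Spn88Eb (0.19, SE 0.47 and −0.75, SE 0.69) were not called.

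The reads of Spn88Eb over those of Spn43Ab differed between the groups of the NELF-E table and overlapped in the other. The ratio was 3.76, 2.76 and 2.91 in the NELF-E RNAi libraries and 0.906, 0.826 and 0.565 in lacZ RNAi, whereas it was 1.72, 1.39 and 1.36 in the 4EHP RNAi libraries and 1.605, 1.30 and 1.23 in controls. This pair too was chosen after its values were seen. Per kb of coding length Spn88Eb ranked second in the family with NELF-E RNAi (129.3 ± 22.4 CPM per kb), behind Spn42Da (175.3 ± 20.8 CPM per kb), and was number 4 with lacZ RNAi (67.1 ± 10.6 CPM per kb). Per kb of exon length it ranked first with NELF-E RNAi (115.4 ± 20.0 CPM per kb) and was also number 4 with lacZ RNAi (59.97 ± 9.46 CPM per kb).

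The remaining tested members were Spn55B and Spn100A. Spn55B was at 9.79, 10.2 and 14.1 CPM with NELF-E RNAi and 12.1, 10.2 and 18.3 CPM with lacZ RNAi (log2 fold change −0.91, SE 0.35, adjusted p = 0.215). With 4EHP RNAi it was at 16.1, 45.9 and 21.7 CPM, against 21.7, 59.6 and 177 CPM in controls, where replicate 3 was far above the rest (log2 fold change −1.82, SE 1.10, adjusted p = 0.695). Spn100A was at 0.200, 12.0 and 8.66 CPM with 4EHP RNAi and 6.75, 3.72 and 7.15 CPM in controls (log2 fold change −0.79, SE 0.93, adjusted p = 0.711). Its lowest value there belonged to a single 4EHP RNAi library. It was at 0.323, 0.271 and 0.425 CPM with NELF-E RNAi and 0.184, 1.85 and 3.90 CPM with lacZ RNAi, below the mean needed for a test.

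**Figure D4:**
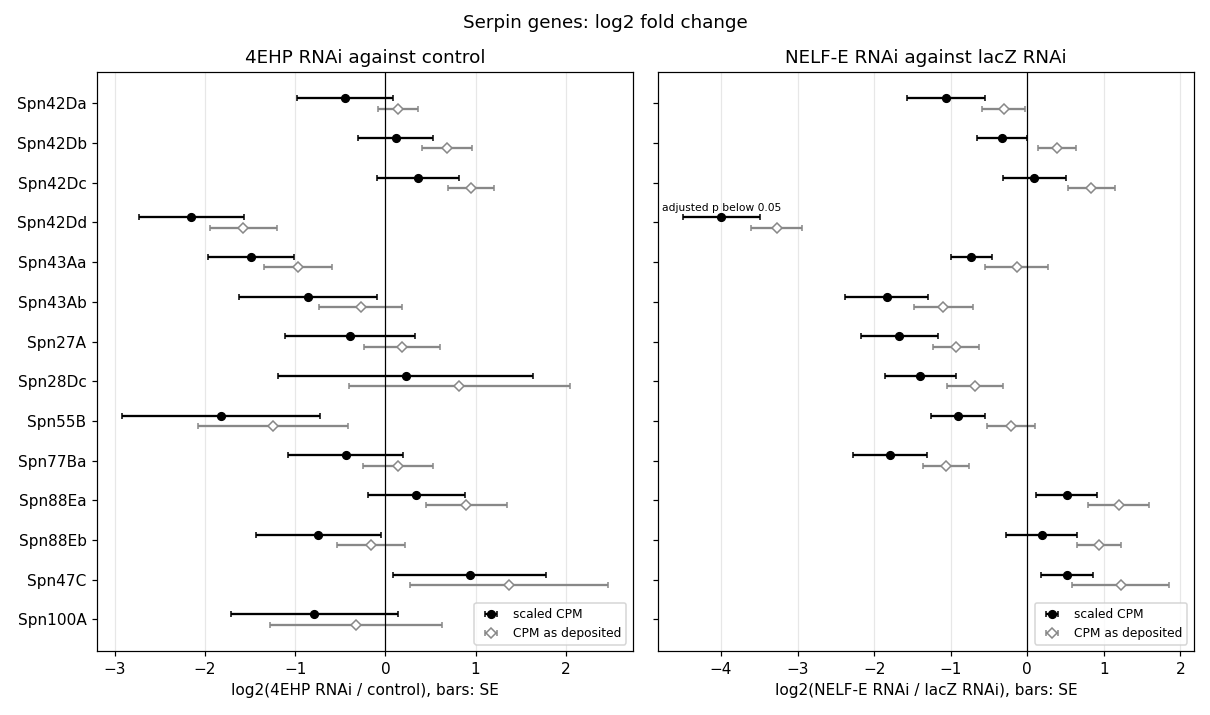
Log2 fold change with its SE from limma for each tested serpin, RNAi over its control. Filled circles are scaled CPM and open diamonds CPM as deposited. Spn42Dd with NELF-E RNAi is the one serpin past the threshold, at −4.00 scaled and −3.27 as deposited.

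Over all 14 serpins tested, limma called 0 higher and 0 lower with 4EHP RNAi, where it called 0% of 8584 genes higher and 0% lower. Of these genes 850 had an unadjusted p under 0.05, 2 of them serpins, edgeR also called 0 genes, and DESeq2 called 205 higher and 182 lower. DESeq2 called 1 serpin lower (Spn42Dd), where it called 2.15% of genes lower. Without control replicate 3, limma called 0 serpins higher and 1 lower (Spn42Dd), where it called 5.25% of genes higher and 1.36% lower. As deposited, 3 serpins (Spn42Db, Spn42Dc and Spn88Ea) lay higher in every 4EHP RNAi library than in every control, as did 23.5% of genes, and 2 (Spn42Dd and Spn43Aa) lay lower, as did 5.07% of genes. After scaling, 0 serpins lay higher and the same 2 lower, where 7.78% and 11% of genes did.

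With NELF-E RNAi, limma called 0 of 13 serpins higher and 1 lower, where it called 1.99% of 8371 genes higher and 2.45% lower. As deposited, 4 serpins (Spn42Db, Spn42Dc, Spn88Ea and Spn88Eb) were higher in every NELF-E RNAi library, as were 19.5% of genes, and 4 (Spn27A, Spn42Dd, Spn43Ab and Spn77Ba) were lower, as were 7.39% of genes. After scaling, 0 serpins were higher in every library and 5 lower, the same 4 and Spn43Aa, where 8.1% and 17.7% of genes were. DESeq2 called 5 serpins lower (Spn27A, Spn28Dc, Spn42Dd, Spn43Ab and Spn77Ba), where it called 9.47% of genes lower. Without lacZ RNAi replicate 1, the lacZ RNAi library with the highest testis marker sum, limma called 7 serpins lower, these 5 with Spn42Da and Spn55B, where it called 23.8% of genes lower, and called 1 (Spn47C) higher, where it called 17.5% of genes higher. The median log2 fold change of the tested serpins was −0.91 with NELF-E RNAi, beside −0.05 over all genes tested, and −0.44 with 4EHP RNAi, beside 0.15. As deposited these medians were −0.21 beside 0.65 and 0.14 beside 0.68. Without control replicate 3 the serpin median with 4EHP RNAi was 0.07, beside −0.01 over all genes tested.

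A list of 24 related genes held proteases, recognition proteins, the ligand and the receptor of the Toll cascade, prophenoloxidases and their proteases, the convertases Fur1, Fur2 and amon, and the serpin nec. Of these genes, 18 could be tested in each contrast. With NELF-E RNAi 0 passed as higher and 3 as lower, where 1.99% and 2.45% of all genes tested did. The modular protease modSP, which starts the cascade, was at 15.2, 15.7 and 19.4 CPM with NELF-E RNAi and 42.9, 62.2 and 42.6 CPM with lacZ RNAi (log2 fold change −2.21, SE 0.44, adjusted p = 0.0308). The protease grass, which acts after it, was at 12.3, 14.3 and 9.98 CPM with NELF-E RNAi and 44.1, 70.5 and 49.7 CPM with lacZ RNAi (log2 fold change −2.78, SE 0.50, adjusted p = 0.0201). PGRP-SD, a recognition protein of the Toll pathway, was at 29.5, 44.9 and 27.9 CPM with NELF-E RNAi and 95.4, 130 and 129 CPM with lacZ RNAi (log2 fold change −2.52, SE 0.51, adjusted p = 0.0319). For all 3 genes the groups did not overlap. As deposited, 7 of the 18 lay lower in every NELF-E RNAi library (these 3, Sp7, GNBP3, psh and nec), as did 7.39% of genes. On that scale 3 lay higher (SPE, spz and Fur2), as did 19.5% of genes. After scaling, 5 of the 18 lay lower (these 3, Sp7 and GNBP3) and 0 higher, where 17.7% and 8.1% of genes did. Their calls were kept in 11, 12 and 11 of 16 alternatives for modSP, grass and PGRP-SD, and without lacZ RNAi replicate 3 the adjusted p was 0.133, 0.106 and 0.154. All 3 calls were also lost without NELF-E RNAi replicate 1 (0.0983, 0.0581 and 0.105), without NELF-E RNAi replicate 3 (0.108, 0.081 and 0.128) and with no filter (0.0859, 0.0687 and 0.0864). That of modSP was lost without NELF-E RNAi replicate 2 (0.0726), and that of PGRP-SD without lacZ RNAi replicate 2 (0.0808).

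With 4EHP RNAi 0 of the 18 passed in either direction. On both scales 3 of the 18 (modSP, PGRP-SD and GNBP3) lay lower in every 4EHP RNAi library than in every control. On both, 1 lay higher (SPE). Of all genes tested, 5.07% lay lower and 23.5% higher as deposited, and 11% and 7.78% after scaling. modSP was at 33.5, 39.0 and 49.6 CPM with 4EHP RNAi and 66.2, 52.7 and 57.0 CPM in controls (log2 fold change −1.10, SE 0.44, adjusted p = 0.486). PGRP-SD was at 44.6, 77.8 and 52.2 CPM with 4EHP RNAi and 104, 169 and 143 CPM in controls (log2 fold change −1.83, SE 0.55, adjusted p = 0.318). GNBP3, a recognition protein for fungal glucans that is named here after its values were seen, was at 182, 293 and 272 CPM with 4EHP RNAi and 479, 600.3 and 698 CPM in controls (log2 fold change −1.85, SE 0.58, adjusted p = 0.355). The higher gene, SPE, the protease that cuts the Toll ligand spz, was at 42.5, 57.9 and 53.0 CPM with 4EHP RNAi and 3.94, 6.29 and 13.5 CPM in controls, with no overlap (log2 fold change 2.08, SE 0.73, adjusted p = 0.414, and 2.99 with adjusted p = 0.00336 without control replicate 3). With NELF-E RNAi the log2 fold change of SPE was 0.24 (SE 0.40, adjusted p = 0.712). The ligand spz had log2 fold changes of 0.04 (SE 0.65) with 4EHP RNAi and 0.39 (SE 0.38) with NELF-E RNAi. For psh, the protease held by nec, they were −0.11 (SE 0.72) and −1.68 (SE 0.55, adjusted p = 0.145). The prophenoloxidases PPO1 and PPO2 had −1.30 (SE 0.82) and −1.71 (SE 0.83) with NELF-E RNAi, and 0.65 (SE 0.67) and 0.33 (SE 0.68) with 4EHP RNAi. None of these passed. PPO3, below the mean needed for a test and named after its values were seen, went the other way with NELF-E RNAi. It was at 4.44, 2.61 and 9.50 CPM with NELF-E RNAi and 0.533, 0.812 and 1.03 CPM with lacZ RNAi. With 4EHP RNAi it was at 1.84, 11.0 and 7.84 CPM, against 0.828, 0.504 and 0.879 CPM in controls. After scaling, its groups overlapped in the 4EHP table only. The median log2 fold change of the list was −1.33 with NELF-E RNAi, beside −0.05 over all genes tested, and −0.12 with 4EHP RNAi, beside 0.15.

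In TRIBE, the deposited table listed 107 sites in 14 serpin genes among 93909 pairs of site and gene. The authors kept these sites after comparing the same libraries, so a higher share in 4EHP-ADAR is not a finding by itself. Spn42Dc had 14 sites, Spn28Dc 13, Spn27A 12, Spn47C and Spn88Eb 11 each, and Spn42Dd 2. Of the serpin sites 71.0% were in coding sequence, 17.8% in 5′ UTRs and 8.41% in 3′ UTRs, beside 65.8%, 13.1% and 14.7% of all pairs. No site was listed for any of the 8 male tract serpins, which summed to at most 3.56 CPM in an RNA-seq library. At such levels few reads could show an edit, so this absence does not bear on binding. A site was tested where no library had fewer than 20 reads of A or G. The quasi-binomial model called 0 of 97 such serpin sites, where it called 0.093% of 69874 sites. Unadjusted, 3 of the 97 were under 0.05, as were 899 of the 69874 sites. Fisher's exact test, run on reads summed over libraries and so blind to their spread, called 4, where it called 1.07% of sites.

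The site with the highest score, 18.2, lay in the 5′ UTR of Spn42Da at 6878897 on 2R (dm6). With 4EHP-ADAR, G made up 6.32%, 4.29% and 4.85% of its A and G reads, against 1.00%, 0.395% and 0.441% with the mutant, at 454 to 665 reads per library. The groups did not overlap. The pooled shares were 5.23% (95% Wilson interval 4.28% to 6.38%, counting error only) with 4EHP-ADAR and 0.641% (0.349% to 1.18%) with the mutant. The adjusted p was 0.0872, from 0.211 to 0.504 when a library was left out, and 0.00299 with limma on the empirical logit. It was the only serpin site with a score above 10, of 349 such sites in all.

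The next site, with a score of 8.54, was in the coding sequence of Spn42Dc at 6881801 on 2R. It had 2.24%, 1.76% and 5.86% G with 4EHP-ADAR and 0.338%, 1.21% and 0.501% with the mutant (adjusted p = 0.521). A 5′ UTR site of Spn88Eb at 15208748 on 3R (score 6.69) had 7.09%, 12.3% and 18.2% G with 4EHP-ADAR and 6.87%, 2.70% and 0% with the mutant (adjusted p = 0.521), at 74 to 141 reads. A 3′ UTR site of Spn42Da at 6876220 on 2R (score 4.80) was high with both constructs, at 60.9%, 47.2% and 53.8% with 4EHP-ADAR and 26.3%, 47.1% and 53.0% with the mutant, and the groups overlapped. A coding site of Spn28Dc at 8006984 on 2L (score 2.88) had 1.24%, 1.36% and 1.53% G with 4EHP-ADAR and 0% in all 3 mutant libraries, where 0 of 191 reads allow up to 1.57%. At Spn42Dd, the serpin that fell with NELF-E RNAi, the highest score was 0.161.

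**Figure D5:**
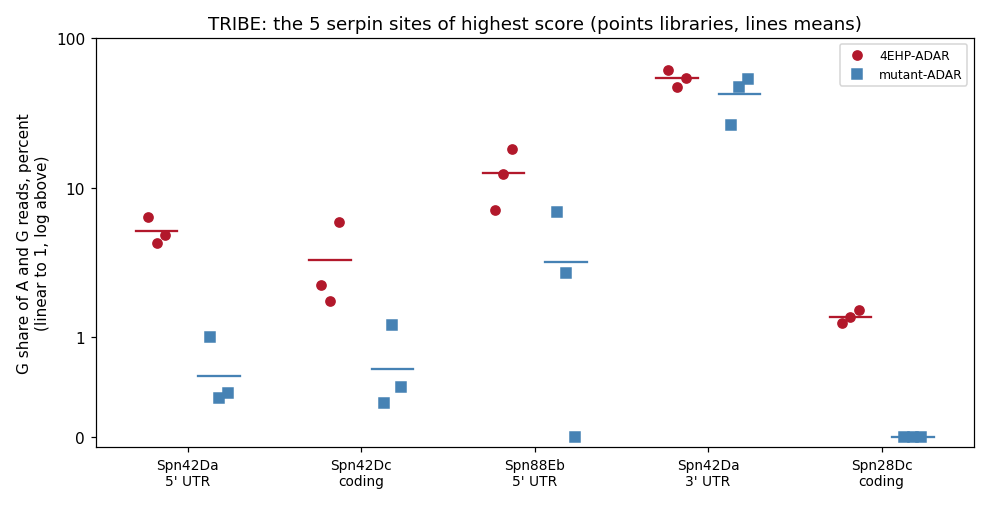
Share of G among A and G reads, in percent, at the 5 serpin sites with the highest scores (axis linear to 1, logarithmic above). Points are libraries and lines group means (n = 3). At the Spn42Da 5′ UTR site the 4EHP-ADAR libraries lie at 4.29% to 6.32% and the mutant libraries at 0.395% to 1.00%.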

How the data were processed

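RNA-seq of polyA RNA was processed by the authors with the Seq-N-Slide workflow. The submitters' processing notes name STAR, featureCounts, DESeq2 and dm6. The deposited values are CPM per gene, with 1 table per contrast. Gene positions and exon lengths came from the Ensembl annotation of BDGP6 (dm6 coordinates), which may differ from the annotation used for counting. Because CPM keeps the size of 1 read, whole reads were recovered for 99.9% to 100.0% of values (tolerance 0.1 reads).

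Within each table, genes that averaged 5 CPM or more were tested with limma 3.58.1 in R 4.3.3 (trend, Benjamini-Hochberg, threshold 0.05). The values were log2 of CPM plus 1, after scaling by a factor for each library from the median of ratios. On the recovered reads, edgeR 4.0.16 called 0 genes with 4EHP RNAi, and 187 higher and 204 lower with NELF-E RNAi. DESeq2 1.42.0 called 205 higher and 182 lower with 4EHP RNAi, and 312 and 887 with NELF-E RNAi. Other alternatives changed the scaling, pseudocount and filter, added array weights or a replicate block, and left out each library in turn.

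TRIBE reads were processed by the authors with FLEXBAR, HISAT2 and JACUSA. The deposited table gives A and G read counts per library and a score, in which the likelihood of unequal editing by the constructs is set against that of equal editing on a log scale. Its positions count from 0 and 1 was added. Sites where no library had under 20 reads of A or G were tested with a quasi-binomial model with a moderated dispersion.

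All members with a mean of at least 5 CPM, the other members with at least 10 reads in a library, the 5 top-scoring TRIBE sites, the pathway genes called and psh, SPE, spz, PPO1 and PPO2 were named. Members, classes and lists were chosen with earlier results of these data known. The study calls its 3 RNA-seq replicates per genotype biological, each a separate pool of larvae. For TRIBE no source used here says how the replicates were taken, so those p-values measure the spread between these samples, which may be technical. Intervals and floors cover counting error only. Models were checked on simulated data.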

Additional observations from a re-analysis of the deposited data

How the results depend on the processing

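Spn42Dd was called lower with NELF-E RNAi under every alternative run, and its direction with 4EHP RNAi was negative under every alternative. The count of serpins called lower with 4EHP RNAi was 0, and became 1 in DESeq2 (2.15% of all genes called lower) and 2 with array weights (12.4%), which also called 2 higher (Spn42Dc and Spn88Ea, 13.1%). It ranged from 0 to 1 when a library was left out, 1 being without control replicate 3 (1.36%). With NELF-E RNAi the count of serpins called lower was 1, and became 5 in DESeq2 (9.47% of all genes called lower), 8 with array weights (30.2%) and 5 with the replicate block (8.47%), and array weights called 1 higher (24.1%). Leaving out a library gave 1 to 7 lower and 0 to 1 higher, the upper ends being without lacZ RNAi replicate 1 (23.8% and 17.5%). In TRIBE 0 serpin sites were called, against 4 by Fisher's exact test (1.07% of all sites), 1 by limma on the empirical logit (0.70%) and 2 by that fit with the replicate block (0.73%). For pairing, each library's deviations from its group mean, in log2(scaled CPM + 1), were correlated between RNAi and control libraries. These are not correlations of whole profiles. Same-numbered libraries had correlations of deviations of 0.12, 0.011 and −0.167 in the 4EHP table, and 0.303, 0.185 and −0.214 in the NELF-E table. Those with different numbers spanned −0.278 to 0.167 and −0.387 to 0.415. The highest value of each table thus joined libraries with different numbers. Whether the replicate numbers pair the samples was not tested. The block left the 4EHP counts at 0.

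Among log2 fold changes not called, the sign turned in CPM as deposited for Spn27A (0.19), Spn42Da (0.14) and Spn77Ba (0.14) with 4EHP RNAi and Spn42Db (0.39) with NELF-E RNAi. It turned in DESeq2 for Spn28Dc (−0.16, 4EHP RNAi) and Spn42Dc (−0.040, NELF-E RNAi). With array weights it turned for Spn100A (0.40), Spn27A (0.32), Spn42Da (0.047) and Spn47C (−0.086) with 4EHP RNAi and Spn88Eb (−0.067) with NELF-E RNAi. When a library was left out, the values with 4EHP RNAi spanned −1.35 to 0.15 for Spn100A, −0.98 to 0.43 for Spn27A, −0.91 to 1.51 for Spn28Dc, −0.78 to 0.12 for Spn42Da, −0.20 to 0.52 for Spn42Db, −0.038 to 1.44 for Spn47C, −0.999 to 0.22 for Spn77Ba, −0.021 to 0.83 for Spn88Ea and −1.33 to 0.011 for Spn88Eb. With NELF-E RNAi they spanned −0.24 to 0.54 for Spn42Dc and −0.32 to 0.62 for Spn88Eb. The causes were not tested.

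Over all genes, 0 were called higher and 0 lower with 4EHP RNAi, against 1121 and 1062 with array weights, 205 and 182 in DESeq2, 71 and 22 in CPM as deposited, 458 and 119 without control replicate 3, and 50 and 23 when scaled on genes of at least 100 CPM, an alternative chosen after seeing the data. A pseudocount of 5 called 5 higher. With NELF-E RNAi 167 were called higher and 205 lower, against 2016 and 2526 with array weights, 1454 and 1978 without lacZ RNAi replicate 1, 313 and 709 with the replicate block, 312 and 887 in DESeq2, 337 and 173 in CPM as deposited, 267 and 236 with the added scaling and 199 and 95 with no filter. Leaving out other libraries gave 50 to 176 higher and 47 to 147 lower. At TRIBE sites 65 were called, against 750 by Fisher's exact test, 489 by the logit fit, 510 with the block, 29 without sites of at least 95% G and 0 to 37 when a library was left out.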
